A study of Mus musculus with 37 samples.

Results

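The subcortical maternal complex is a protein assembly that the growing oocyte makes and stores beneath its cortex, and that embryos carry through the first cleavages. Its members were taken by gene symbol, as Nlrp5, Ooep, Tle6, Khdc3, Padi6, Nlrp2, Zbed3 and Nlrp4f, and all 8 were listed in each of the 4 RNA-seq tables, out of 29294 genes listed in at least 1 of them. The 31 RNA-seq libraries came from mouse germinal vesicle (GV) oocytes and 2-cell embryos, and 6 ATAC-seq libraries, which mark open chromatin, came from GV oocytes. The question was how the RNA of these genes differed when subunits of the Hira complex, the chaperone that deposits histone H3.3, were deleted in the oocyte, or when Zscan4d RNA was injected.

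ZH KO oocytes lacked exons 6 and 7 of Hira and CabZ KO oocytes lacked exon 6 of Cabin1, both deleted by Zp3-Cre, which is expressed in growing oocytes. The controls, ZH Het and CabZ Het, were littermates that carried the same Zp3-Cre and 1 floxed allele, so that no group of these lines was free of Cre. Oocytes were collected from hormone-primed C57BL/6 females. CabZ 2-cell embryos came from Cabin1 Het and KO mothers, and whether those sequenced were fertilised or parthenogenetic is not given in the sources used here. The third kind of 2-cell embryo was parthenogenetic and arose from wild-type oocytes injected with Zscan4d RNA (Zscan4 OE) or GFP RNA. Each group held 4 libraries, apart from Zscan4 OE with 3 and the ATAC-seq groups with 3 each. By the methods each library pooled several oocytes, although the records speak of individual cells, and no source ties a library to a female. The p-values below therefore measure the spread between libraries, which may be technical.

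Maternal proteins of this complex serve the early cleavages. Loss of several of them from the egg arrests development although the fathers' copies are intact. NLRP5 (also called MATER), OOEP (FLOPED) and TLE6 form the core, in which NLRP5 is an NLR-family scaffold, OOEP a KH-domain protein and TLE6 a relative of the Groucho co-repressors. KHDC3 (FILIA) is a second KH-domain protein that binds the core, and PADI6, a member of the peptidylarginine deiminase family, is required for the cytoplasmic lattices in which the complex resides. ZBED3 is a zinc-finger protein linked to the position of the spindle in the first divisions, and NLRP2 and NLRP4F are NLR relatives of NLRP5.

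The genes lie on 5 chromosomes of GRCm38. The core genes are Nlrp5 on the plus strand of chr7:23385889-23441922, Ooep on the minus strand of chr9:78376109-78378725 and Tle6 on the minus strand of chr10:81590904-81601073. Khdc3 spans chr9:73101836-73104438 on the plus strand and Padi6 spans chr4:140727355-140742643 on the minus strand. Zbed3 covers chr13:95323612-95337841 on the plus strand, Nlrp4f covers chr13:65177111-65205977 on the minus strand and Nlrp2 covers chr7:5298547-5351035 on the minus strand. Ooep and Khdc3 are compact, with a span only 1.22 and 1.27 times the length of their exons, whereas Nlrp2 spans 15.0 times and Nlrp5 11.6 times its exon length. This matters for the values, because FPKM in these tables were reads per kb of the whole span, introns included. Khdc3 shares 1969 bp with the predicted gene Gm20509 on the same strand, Zbed3 hosts the small nucleolar RNAs Snora47 and Gm22661, and the Nlrp4 genes are close copies of each other, so that reads of these members may be split or shared by the authors' counting.

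The start-site windows of 4 members are shown because Tle6 had an open-chromatin peak in every library and Padi6 in every CabZ Het library, and Zbed3 and Ooep had the largest RNA differences. Each is the RefSeq window of GRCm38.p6 from 250 bases before to 50 after the start, read 5′ to 3′ on the strand of the gene: Tle6 chr10:81600851-81601150 (minus), Padi6 chr4:140742594-140742893 (minus), Ooep chr9:78378539-78378838 (minus) and Zbed3 chr13:95323355-95323654 (plus). Capitals mark CANNTG, the E-box letters that the oocyte factor FIGLA is known to use, and TAATTG or TAATTA, the letters known from NOBOX sites, each searched on both strands.
Tle6: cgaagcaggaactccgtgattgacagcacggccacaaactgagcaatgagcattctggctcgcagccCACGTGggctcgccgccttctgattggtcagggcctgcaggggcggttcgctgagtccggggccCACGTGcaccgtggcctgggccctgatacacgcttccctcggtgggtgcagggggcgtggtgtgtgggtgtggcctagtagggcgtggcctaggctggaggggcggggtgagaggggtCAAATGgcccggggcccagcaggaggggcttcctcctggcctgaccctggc
Padi6: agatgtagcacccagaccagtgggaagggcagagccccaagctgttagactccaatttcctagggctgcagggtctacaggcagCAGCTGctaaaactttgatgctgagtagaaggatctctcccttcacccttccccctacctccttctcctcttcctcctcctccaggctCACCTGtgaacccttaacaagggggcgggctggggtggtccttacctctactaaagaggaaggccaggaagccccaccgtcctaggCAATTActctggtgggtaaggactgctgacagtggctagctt
Ooep: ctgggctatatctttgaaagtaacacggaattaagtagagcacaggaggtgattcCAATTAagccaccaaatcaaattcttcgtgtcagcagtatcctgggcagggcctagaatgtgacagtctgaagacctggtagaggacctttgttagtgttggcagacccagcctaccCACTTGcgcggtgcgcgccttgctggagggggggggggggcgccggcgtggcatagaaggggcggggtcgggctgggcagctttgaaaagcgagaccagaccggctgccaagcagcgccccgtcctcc
Zbed3: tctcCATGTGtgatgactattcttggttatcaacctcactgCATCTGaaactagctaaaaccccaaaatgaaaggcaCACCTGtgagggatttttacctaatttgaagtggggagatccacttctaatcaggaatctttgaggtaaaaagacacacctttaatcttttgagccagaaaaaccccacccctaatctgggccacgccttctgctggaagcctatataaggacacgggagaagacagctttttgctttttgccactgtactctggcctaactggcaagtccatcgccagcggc

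All 8 members had a RefSeq window. CANNTG occurred in 7 of the 8, all but Nlrp2, against 72.3% of all 32851 windows of that length. The palindrome CACGTG, a special case of CANNTG, stood at -183 and -119 from the start in Tle6 and in no other member, against 7.15% of windows. TAATTG was found in Ooep at -195 and in Padi6 at 8 (8.0% of windows), and TAATTA in Nlrp5 at -189 (5.29% of windows). These matches are letters in a window and describe no binding. The RefSeq start of Ooep lies 137 bp, that of Tle6 173 bp, that of Nlrp4f 261 bp and that of Khdc3 562 bp inside the gene as GENCODE draws it. The windows of Khdc3 and Nlrp4f thus lie wholly inside the GENCODE gene. ATAC-seq peaks were counted at the GENCODE starts, so for these 4 genes windows and peaks refer to different start sites.

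The libraries held 5819316 to 21869858 reads on genes. Replicates of a group correlated with r of 0.905 to 0.990 across genes, and no member had fewer than 69 reads in any library (Tle6, GFP replicate B). In CabZ GV oocytes, Cabin1 was at 0.119 ± 0.0312 FPKM in Het and 0.0242 ± 0.0167 in KO (SD, n = 4 each), with no overlap. Hira was at 0.0117 FPKM or less in every ZH library, too low to check the genotype. Zscan4d was at 70.3 to 84.3 FPKM in the libraries labelled Zscan4 OE and at 69.4 to 149 in the GFP libraries, so the table does not show the injected gene above its control. The paper reports higher Zscan4 RNA after injection against an uninjected oocyte group, and higher protein against an uninjected group. The libraries here are 2-cell embryos with GFP-injected controls, so the control differs and, for the RNA, the stage named. The 2-cell stage also holds Zscan4d without injection, with a mean of 104 FPKM in CabZ Het embryos against 3.71 in CabZ Het GV oocytes, scaled separately. In Het GV oocytes the oocyte markers (zona, growth factor and germ cell genes, 11 of 11 listed) summed to 1885 to 2984 FPKM. Not all were high: Ddx4 and Kit had means of 0.616 and 0.931 FPKM in ZH Het and 0.581 and 1.11 in CabZ Het. Granulosa and cumulus markers summed to at most 2.16 FPKM in any GV library, and Fshr, Has2, Inhba and Kitl were under 0.1 FPKM in Het oocytes of both lines.

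In Het GV oocytes the order of the members was the same in both lines. Ooep was highest, with 555 ± 83.6 FPKM in ZH Het (SD, n = 4) and 1291 ± 97.6 FPKM in CabZ Het, where it ranked 9 among the 19033 genes listed. Khdc3 and Zbed3 followed with overlapping ranges, then Padi6 and Tle6, whose ranges also overlapped, then Nlrp4f, Nlrp5 and Nlrp2, each separate from its neighbour. Levels ran down to 7.09 ± 1.44 FPKM for Nlrp2 in ZH Het. Per kb of exon the order changed. Zbed3 then led with 2218 ± 362 CPM per kb of exon in ZH Het, above Ooep with 913 ± 139, and Padi6 moved ahead of Khdc3. Together the 8 genes summed to 15426 ± 699 CPM (reads scaled to a fixed library total, with no division by length) in ZH Het and 15449 ± 781 CPM in CabZ Het oocytes.

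**Figure D1:**
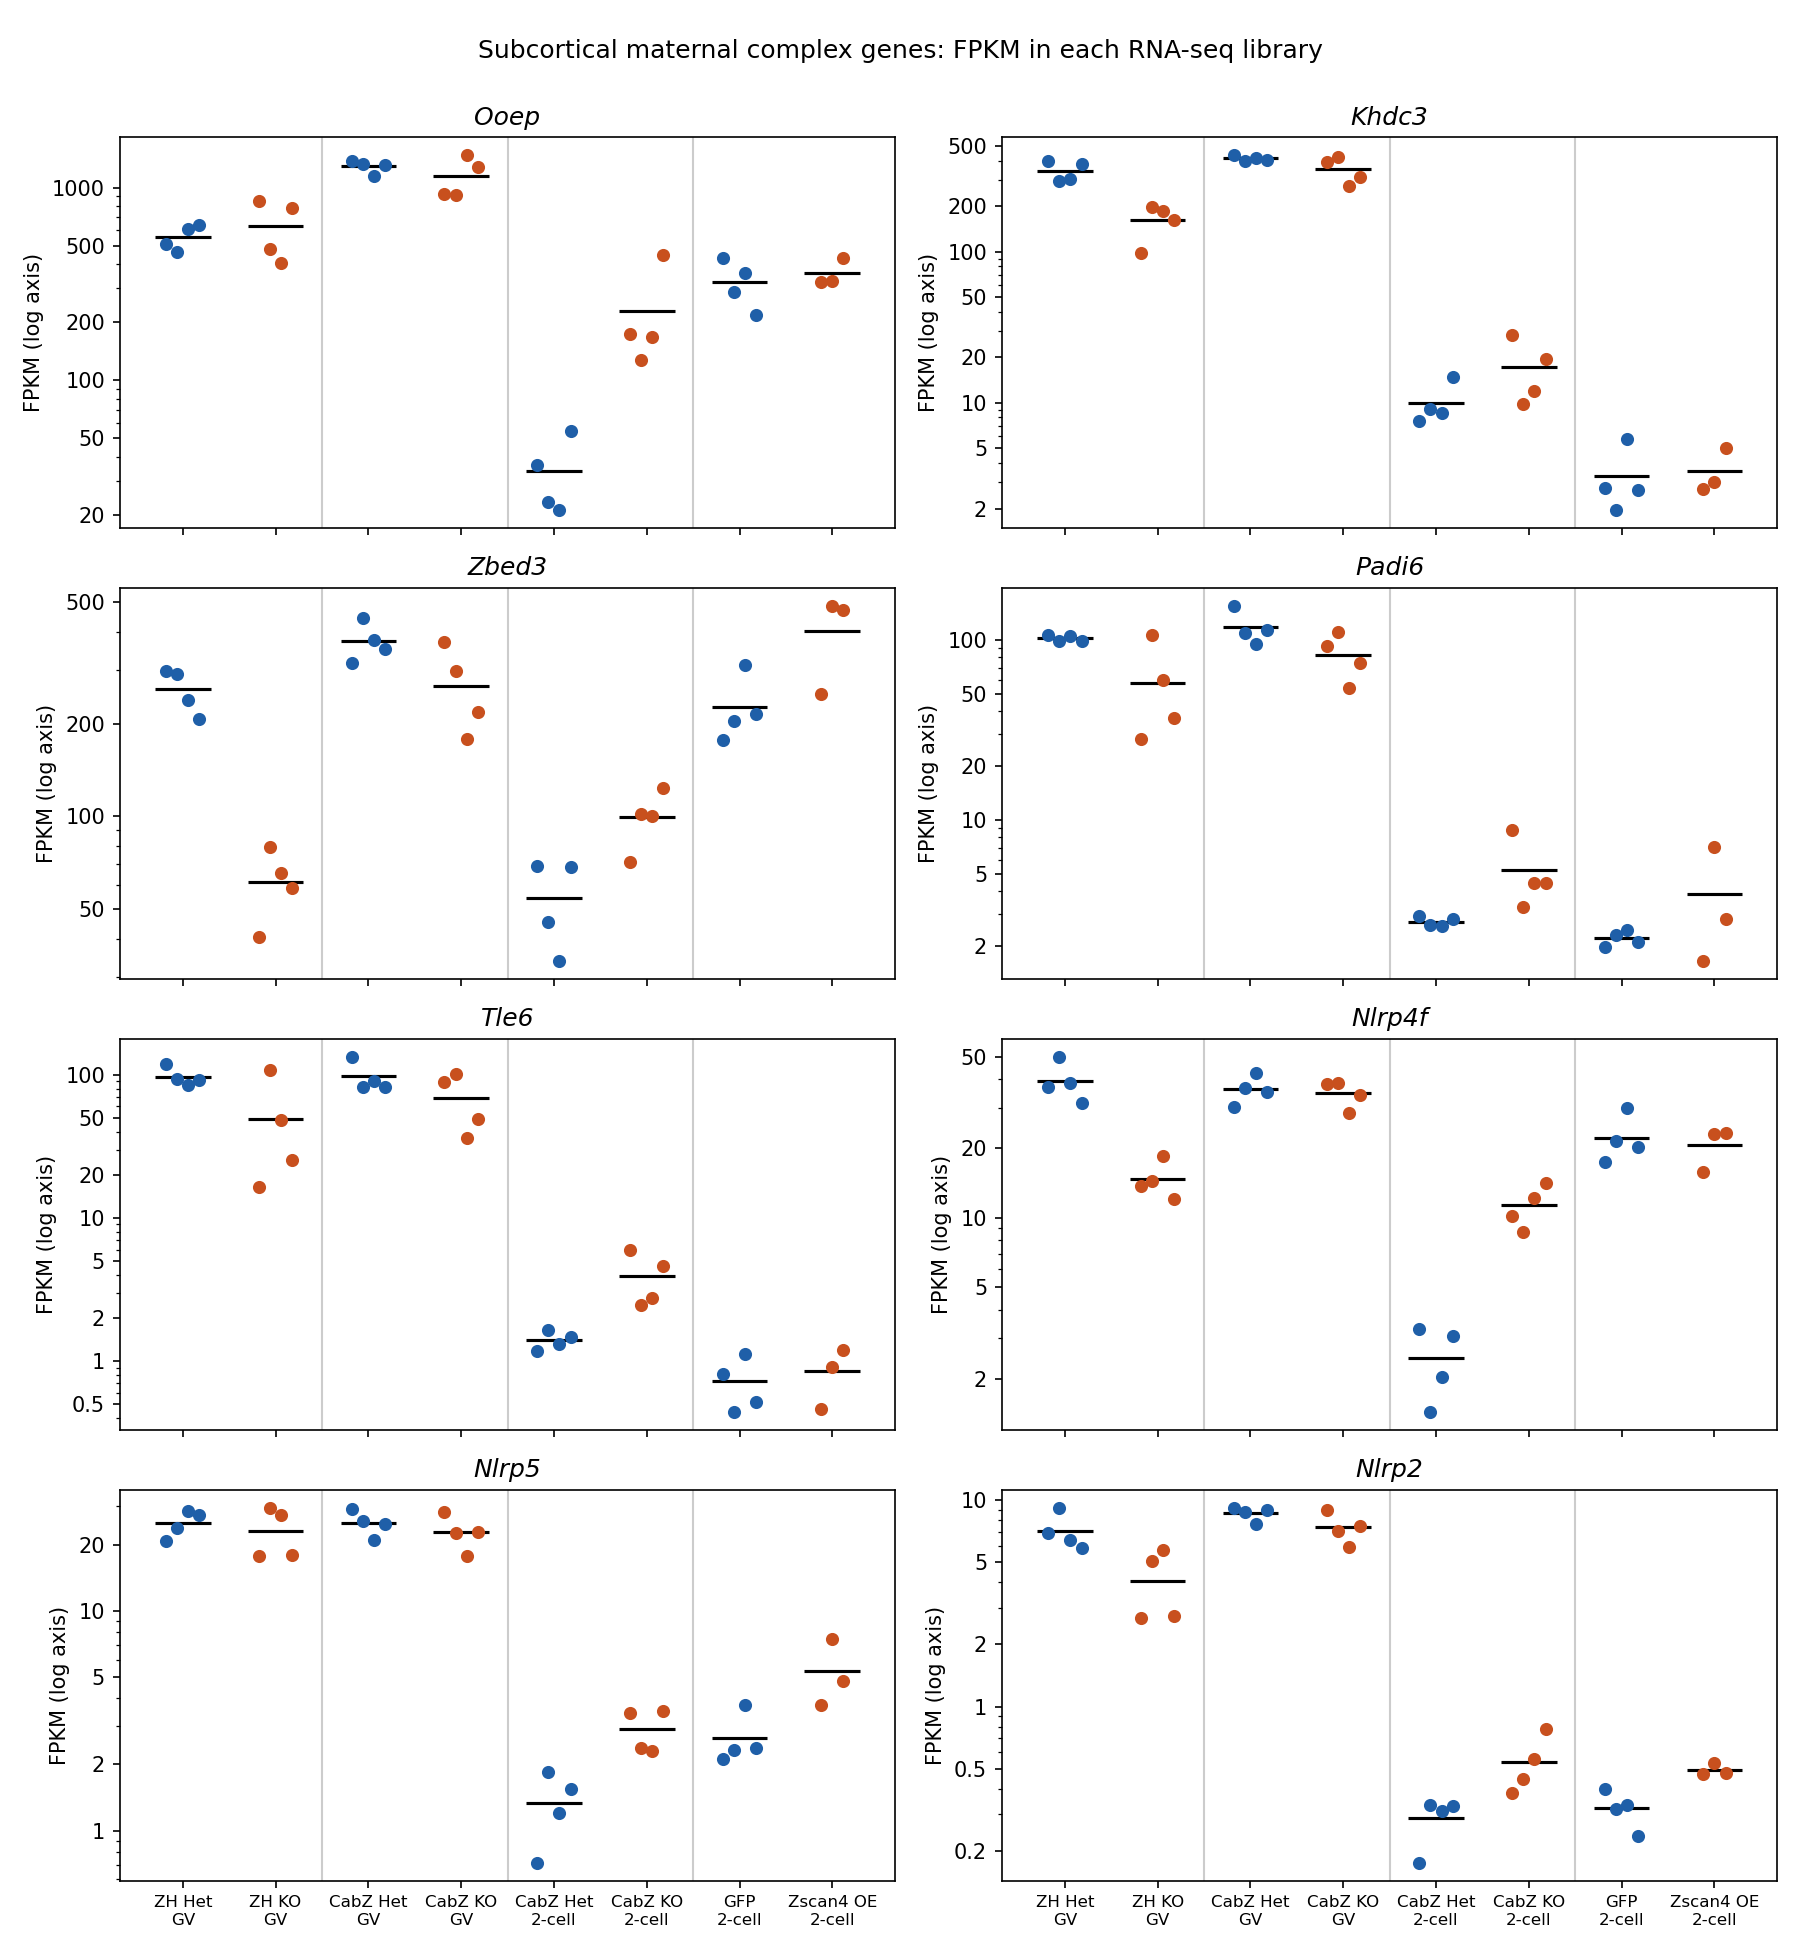
FPKM of each gene (log axis) in every RNA-seq library; each point is a library, blue for Het or GFP and orange for KO or the libraries labelled Zscan4 OE, and bars are group means. Zbed3 and Nlrp4f in ZH KO oocytes lie below all ZH Het libraries, and Ooep in CabZ KO 2-cell embryos, at 127 to 446 FPKM, lies above all CabZ Het libraries.

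In ZH KO oocytes 6 of the 8 members were lower than in ZH Het, while the core genes Nlrp5 and Ooep did not pass the test. Differences are given as the mean log2(FPKM + 1) of KO minus Het with its standard error, and adjusted p-values come from limma with Benjamini-Hochberg adjustment over the 5792 genes tested in the table. Of all genes tested, 26.3% were lower and 25.6% higher at an adjusted p under 0.05. With a fold change above 2 as well, the rule used for differential expression, 4 members were lower (Zbed3, Nlrp4f, Tle6 and Khdc3) against 7.2% of all genes. The median over the 8 members was -1.06 and over all genes -0.04.

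Zbed3 showed the largest fall. Its FPKM were 298, 291, 240 and 208 in the ZH Het libraries and 40.5, 79.4, 65.5 and 58.5 in the ZH KO libraries. Every KO library was far below every Het library. The mean was 4.25-fold lower (log2 difference -2.09 ± 0.21, adjusted p = 6.2e-05 by limma). Nlrp4f was at 37.0, 50.0, 38.5 and 31.5 FPKM in Het and 13.8, 14.4, 18.6 and 12.1 FPKM in KO, again without overlap, and fell by 1.35 ± 0.17 on the log2 scale (adjusted p = 2.4e-04, limma). Both calls held in each of the 8 fits with a library left out.

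Khdc3 was at 399, 293, 301 and 383 FPKM in Het and 98.3, 199, 185 and 163 in KO. The groups did not overlap, and replicate 1 was the lowest of the KO libraries. The log2 difference was -1.12 ± 0.22 (adjusted p = 0.0027, limma). Nlrp2, far lower in level, was at 5.85 to 9.15 FPKM in Het and 2.68 to 5.73 in KO, with a log2 difference of -0.71 ± 0.23 (adjusted p = 0.024, limma). Its call was lost without ZH Het replicate 1 or 2 or ZH KO replicate 1 or 4 (adjusted p of 0.053 to 0.073). In all, 4 members were lower with no overlap of the groups (Zbed3, Nlrp4f, Khdc3 and Nlrp2), as were 23.2% of all genes tested.

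Tle6 and Padi6 differed from these in that the KO libraries disagreed with each other. Tle6, the core member, was at 118, 93.6, 84.8 and 91.5 FPKM in Het and 16.3, 108, 48.3 and 25.2 in KO. Padi6 was at 106, 98.5, 105 and 98.7 in Het and 28, 106, 59.8 and 36.8 in KO. In both genes KO replicate 2 sat at the Het level and KO replicates 1 and 4 were the lowest. The log2 differences were -1.30 ± 0.47 for Tle6 (adjusted p = 0.042) and -1.0 ± 0.34 for Padi6 (adjusted p = 0.033) by limma. Without ZH KO replicate 2 they were -1.78 (adjusted p = 0.0017) and -1.35 (adjusted p = 0.0014). The call of Tle6 was lost when any of the other 7 libraries was left out (adjusted p of 0.053 to 0.11), and that of Padi6 in 6 of the 8 fits, all but those without ZH KO replicate 2 or 3 (adjusted p up to 0.091). Without ZH KO replicate 1 Tle6 stood at -0.90, and 2 members rather than 4 were called with the fold threshold. The number that passed the adjusted p fell from 6 to 3 without ZH Het replicate 1 or 2 or ZH KO replicate 1 or 4.

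The other core genes overlapped between genotypes. Nlrp5 was at 20.8, 23.8, 28.4 and 27.3 FPKM in ZH Het and 17.8, 29.5, 27.3 and 18.0 in ZH KO. Its log2 difference was -0.13 ± 0.19 (adjusted p = 0.57, limma), with a 95% interval from -0.57 to 0.30. Ooep was at 509, 462, 612 and 638 FPKM in Het and 851, 481, 404 and 787 in KO. The KO libraries lay both above and below the Het range, and the log2 difference was 0.12 ± 0.25 (adjusted p = 0.69, limma), with a 95% interval from -0.42 to 0.67. Its sign turned under median scaling (-0.023) and that of Nlrp5 when libraries were scaled to the reads of the table (0.011). Under the latter scaling Tle6 and Padi6 also lost their calls (adjusted p of 0.064 and 0.059), while Zbed3, Nlrp4f, Khdc3 and Nlrp2 remained lower under all 3 scalings tried.

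**Figure D2:**
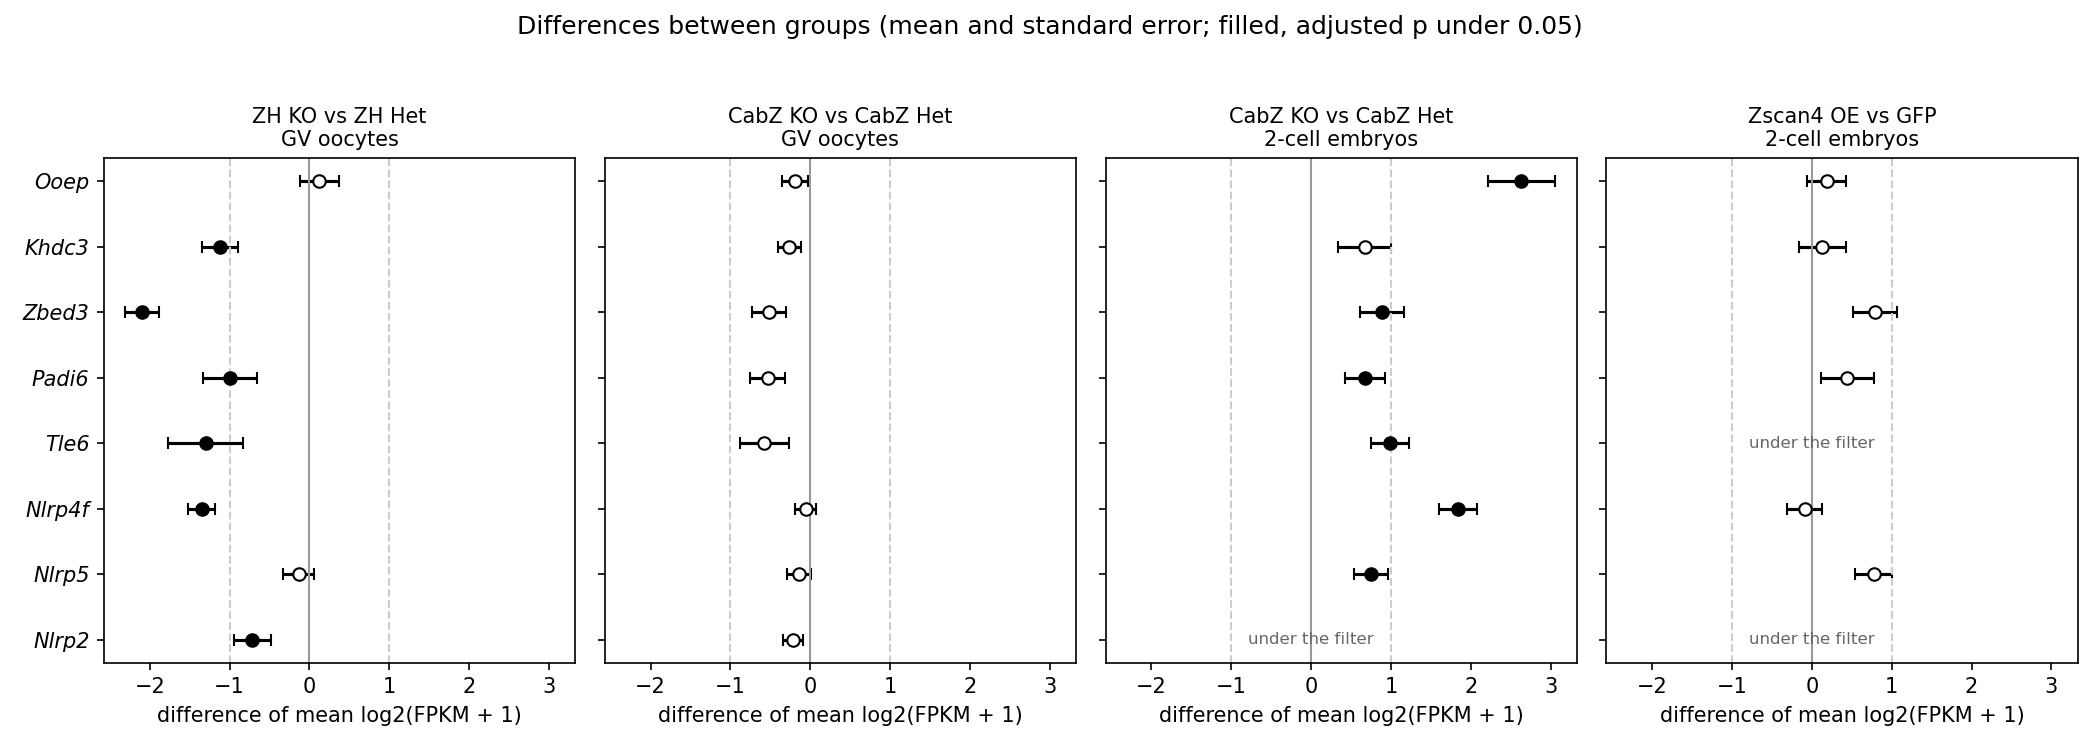
Difference of mean log2(FPKM + 1), KO minus Het or Zscan4 OE minus GFP, with standard error, for the members that passed the filter on low values in each comparison. Filled points have an adjusted p under 0.05 and dashed lines mark a fold change of 2; Zbed3 is at -2.09 in ZH oocytes and Ooep at 2.64 in CabZ 2-cell embryos.

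The scale of the ZH comparison was itself uneven. The genes in the table accounted for 74.2 to 74.7% of the FPKM total in Het and 66.0 to 68.2% in KO libraries. Of all genes called, 59.2% were higher in KO as the values stand, 42.9% after median scaling and 72.0% with libraries scaled to their reads in the table. The median difference over all genes was -0.04, -0.19 and 0.08 respectively. Markers moved as well. Oocyte markers summed to 709, 1341, 1757 and 995 FPKM in KO replicates 1 to 4 against 1885 to 2105 in Het. Of 9 tested, 4 were lower and 2 higher, against 26.3% and 25.6% of all genes. All 7 tested 2-cell markers were higher. Of 5 blood and immune markers the table listed 2, of which Cd68 rose from 1.31 to 3.94 FPKM (adjusted p = 0.0019, limma) and Ptprc was at 0.00966 FPKM or less. Granulosa markers summed to 0.441 to 0.758 FPKM in Het and 1.05 to 2.16 in KO. The part of these shifts in the members' differences was not tested, and fewer oocyte transcripts of a kind and less RNA per oocyte cannot be told apart in pooled libraries.

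In CabZ GV oocytes no member passed the adjusted test, although all 8 means were lower in KO. At an adjusted p under 0.05, 8.2% of the 6339 genes tested were higher and 5.73% lower, and 2.9% differed with a fold change above 2. The unadjusted p of limma was under 0.05 for 2 members, Padi6 and Zbed3, against 26.9% of all genes. The median over the members was -0.24 and over all genes -0.02.

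Tle6 was at 133, 81.9, 90.9 and 82.0 FPKM in CabZ Het and 88.5, 101, 36.3 and 49.3 in CabZ KO. Padi6 was at 155, 109, 95.3 and 114 in Het and 91.8, 111, 53.7 and 74.8 in KO. For both genes KO replicates 1 and 2 lay inside the Het range or close to it, and KO replicates 3 and 4 lay below it. The log2 differences were -0.58 ± 0.31 for Tle6 (adjusted p = 0.27, limma; 95% interval -1.26 to 0.11) and -0.53 ± 0.22 for Padi6 (adjusted p = 0.15, limma; 95% interval -1.03 to -0.04).

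Zbed3 was at 315, 442, 376 and 352 FPKM in Het and 371, 297, 179 and 219 in KO, with a log2 difference of -0.52 ± 0.21 (adjusted p = 0.15, limma). It passed only without KO replicate 1 (-0.70, adjusted p = 0.039). Khdc3 was at 400 to 438 FPKM in Het and 273 to 421 in KO (log2 difference -0.26 ± 0.14, 95% interval -0.58 to 0.05). For the remaining members the 95% intervals ran from -0.36 to 0.24 for Nlrp4f and from -0.47 to 0.19 for Nlrp5. They ran from -0.56 to 0.18 for Ooep and from -0.49 to 0.06 for Nlrp2. Oocyte markers also overlapped between the genotypes (1983 to 2984 FPKM summed in Het, 1712 to 2275 in KO) and none of the 9 tested passed.

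Beneath the group means, the members moved together from library to library, with Ooep apart from the other 7. After each group's mean was subtracted, 20 of 21 pairs among the other 7 genes correlated positively over the 8 ZH libraries (median r 0.73) and 21 of 21 over the 8 CabZ GV libraries (median r 0.63). Tle6 and Padi6 were the closest pair in ZH oocytes (r = 0.987), and Tle6 and Khdc3 in CabZ oocytes (r = 0.967). Ooep correlated negatively with all 7 others over the Het and KO libraries of both lines, with medians of -0.75 and -0.81. In ZH KO replicate 1, for instance, Tle6 was 1.19 below and Ooep 0.50 above its group mean on the log2 scale. In ZH KO replicate 2 Tle6 was 1.46 above and Ooep 0.32 below. The members varied more in KO, with a median SD of 31.3% of the mean against 15.5% in ZH Het, and 21.9% against 13.7% in CabZ Het. Among Het libraries alone the opposition did not hold for every gene. In ZH Het replicates 1 to 4 Ooep deviated by -0.11, -0.25, 0.15 and 0.21 and Nlrp5 by -0.25, -0.06, 0.18 and 0.13. Nlrp2, at -0.01, 0.34, -0.11 and -0.22, ran the other way. In CabZ 2-cell embryos Ooep correlated positively with all 7 others (median r 0.51) and 15 of the 21 other pairs were positive (median r 0.21). Both patterns also occurred in genes that are no members. In ZH KO replicates 1 to 4 Gdf9 was at 106, 346, 261 and 160 FPKM, in the order of Tle6. Dazl was at 103, 60.8, 51.9 and 79.5, in the order of Ooep. How common each pattern was over all genes was not tested, so neither is a trait of the members alone. These correlations share library, depth and scaling, and are given as description over 8 libraries.

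**Figure D3:**
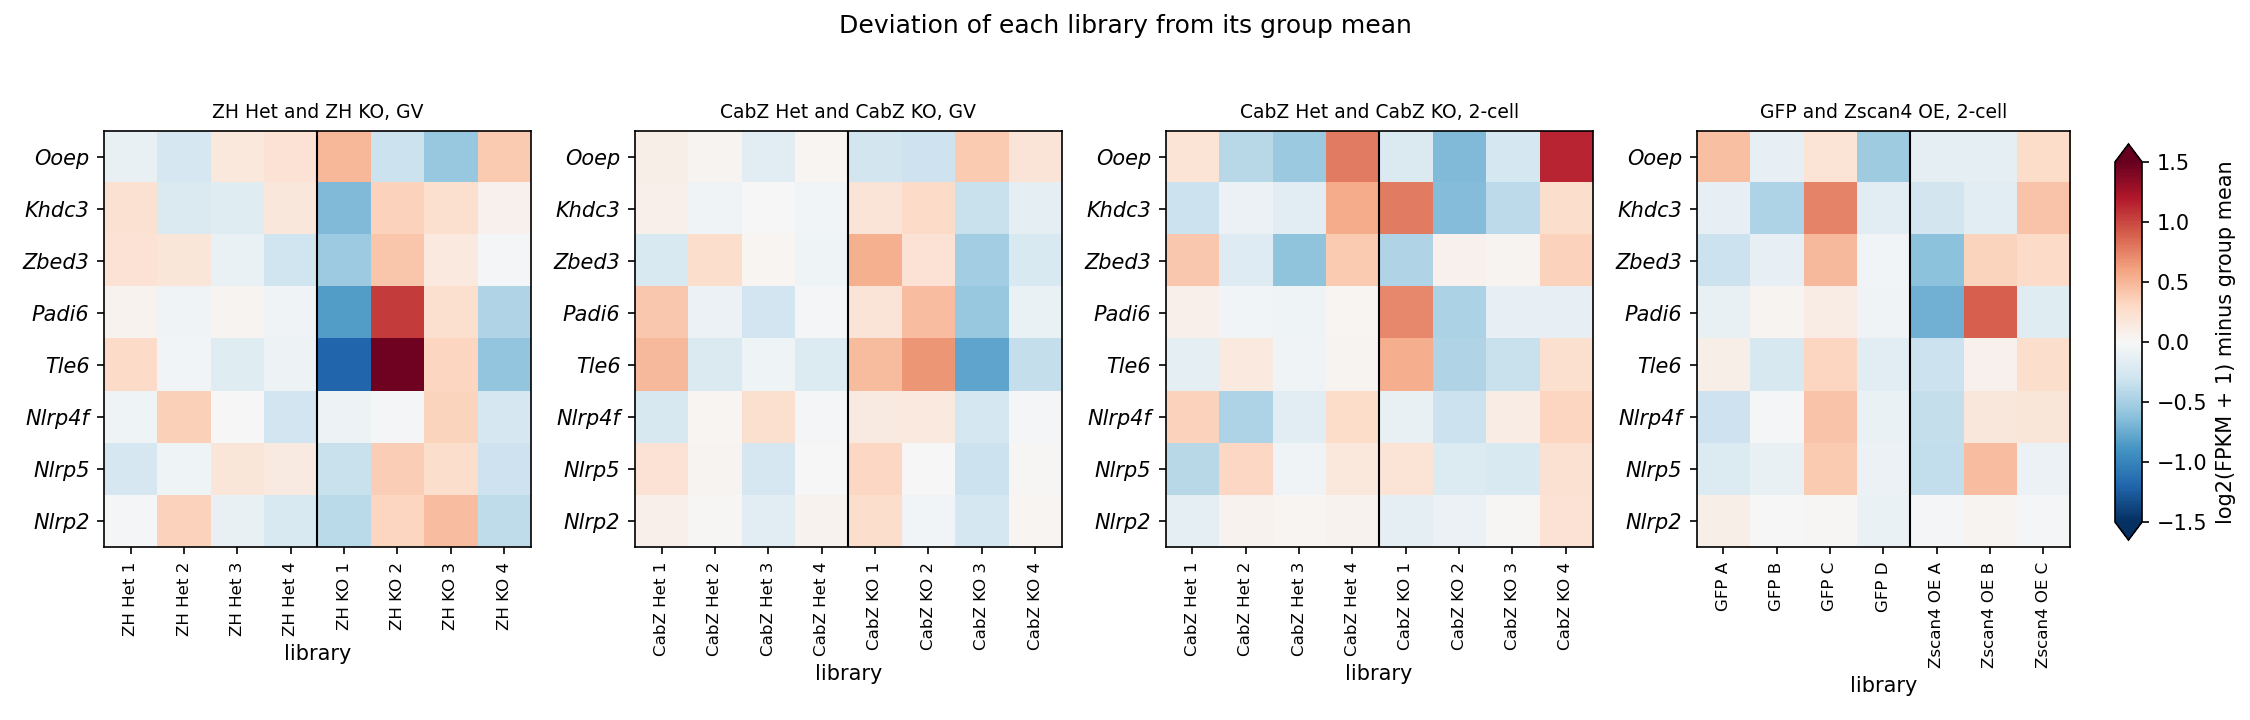
Deviation of each gene (rows) from its group mean in each library (columns), as log2(FPKM + 1), with red above and blue below. In the GV panels the Ooep row has the opposite colour to the other rows in most KO libraries, with Tle6 1.19 below its mean in ZH KO replicate 1 and 1.46 above it in replicate 2.

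Genes that are no members were also correlated with the mean of the 8 over all libraries of a table. Here group means were not subtracted, so r includes any shared difference between the groups. The highest were Oas1e (r = 0.992), Lypd3 and AU022751 in ZH oocytes and Fdft1 (r = 0.969), Gm7774 and Mff in CabZ oocytes, each over 8 libraries. In CabZ 2-cell embryos they were Eif1b (r = 0.991), Gdf9, an oocyte growth factor (r = 0.988), and Miox. In the Zscan4 table they were Pecr (r = 0.995), Olfr976 and Siah1b over 7 libraries. No gene came up in more than 1 table.

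In CabZ 2-cell embryos the members had far lower values than in CabZ GV oocytes. CabZ Het oocytes and embryos were tabulated and scaled separately, so their levels are only set side by side. The mean FPKM in CabZ Het GV oocytes was 69.0 times that of CabZ Het 2-cell embryos for Tle6, 43.6 times for Padi6, 41.4 times for Khdc3, 38.1 times for Ooep, 30.2 times for Nlrp2, 19.0 times for Nlrp5, 14.7 times for Nlrp4f and 6.84 times for Zbed3. Zbed3 and Ooep, with overlapping ranges, led the order in these embryos. In CabZ KO the same ratios ran from 2.68 for Zbed3 to 20.2 for Khdc3, and the ratio for Ooep was 5.05. The 8 genes summed to 1103 ± 303 CPM in CabZ Het and 2696 ± 708 CPM in CabZ KO 2-cell embryos.

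In CabZ KO 2-cell embryos every member had a higher mean than in CabZ Het. Of the 7 tested, 6 passed the adjusted p and were higher, as did 25.2% of the 7798 genes tested, with 30.9% lower, and 2 of them (Ooep and Nlrp4f) exceeded a fold change of 2 on the log2(FPKM + 1) scale, as did 16.9% of all genes. The median was 0.89 over the members and -0.11 over all genes. Of these 7, the 6 other than Khdc3 did not overlap between the groups, as was the case in this direction for 22.9% of all genes.

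Ooep rose most. It was at 36.4, 23.3, 21.2 and 54.7 FPKM in Het and 173, 127, 168 and 446 in KO, so that each KO library was above each Het library and KO replicate 4 stood well above the other KO libraries. The mean rose 6.73-fold, and the log2 difference was 2.64 ± 0.42 (adjusted p = 9.2e-04, limma). Without KO replicate 4 it was 2.25. Nlrp4f was at 3.31, 1.44, 2.04 and 3.08 FPKM in Het and 10.2, 8.72, 12.2 and 14.2 in KO, a 4.59-fold rise with a log2 difference of 1.85 ± 0.24 (adjusted p = 3.4e-04, limma). Both held in all 8 fits with a library left out.

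The other 2 core genes rose from low levels. Tle6 was at 1.17, 1.66, 1.32 and 1.48 FPKM in Het and 5.94, 2.48, 2.78 and 4.61 in KO. Nlrp5 was at 0.713, 1.85, 1.21 and 1.55 FPKM in Het and 3.44, 2.36, 2.30 and 3.52 in KO. In neither did the groups overlap. The log2 differences were 0.99 ± 0.24 for Tle6 (adjusted p = 0.0071) and 0.76 ± 0.21 for Nlrp5 (adjusted p = 0.014) by limma, and both held in all 8 fits with a library left out. The ratio of the mean FPKM was 2.81 for Tle6 and 2.19 for Nlrp5, since the added 1 shrinks differences at these levels. By that ratio 4 members, not 2, would exceed a fold change of 2.

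Zbed3 was at 69.1, 45.4, 33.9 and 68.6 FPKM in Het and 71.1, 102, 101 and 124 in KO. The groups just failed to touch, and the log2 difference was 0.89 ± 0.28 (adjusted p = 0.020, limma). Its call was lost without Het replicate 2, Het replicate 3 or KO replicate 4 (adjusted p of 0.051 to 0.055). Padi6, at 2.56 to 2.90 FPKM in Het and 3.28 to 8.75 in KO, had a log2 difference of 0.68 ± 0.25 (adjusted p = 0.041, limma), which was lost in 7 of the 8 fits, all but that without KO replicate 2 (up to 0.086). Khdc3 overlapped, at 7.54, 9.09, 8.60 and 14.8 FPKM in Het and 28.1, 9.87, 12 and 19.5 in KO, and did not pass (0.67 ± 0.33, adjusted p = 0.11, limma), except without KO replicate 2 (0.89, adjusted p = 0.049). Nlrp2 was under the filter of a mean of 1 FPKM and was compared alone. It was at 0.287 ± 0.0754 FPKM in Het and 0.541 ± 0.174 in KO (SD, n = 4 each), without overlap (exact two-sided permutation test, p = 0.0286, the smallest that 4 against 4 libraries can give).

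Scaling altered the size of these rises but not their direction in any member fitted. With the values as deposited, only Ooep, Zbed3 and Khdc3 passed the filter on low values. There 3 members passed the adjusted p, and the direction of the other members was not seen. Of all genes called, 45.3% were higher in KO as scaled here, 60.9% after median scaling and 75.1% with the values as deposited, with median differences over all genes of -0.11, 0.13 and 0.39. Ooep reached 2.87 and 3.16 under the other 2 scalings. Oocyte markers rose with the members, with 7 of 8 tested higher and sums of 121 to 183 FPKM in Het against 295 to 500 in KO. Of 2-cell markers, 4 of 12 were higher and 1 lower, where 25.2% of all genes were higher and 30.9% lower. Blood and immune markers also moved: Lyz2, a lysozyme of macrophages and granulocytes, was at 0, 0.706, 0.201 and 0.705 FPKM in Het and 1.68, 18.9, 29.1 and 164 in KO (adjusted p = 0.0073, limma), and Cd68 was at 0.839 to 10.0 FPKM in Het and 3.44 to 31.1 in KO (adjusted p = 0.026, limma). Hba-a1 overlapped, Ptprc was at 0.0223 FPKM or less, and the list summed to 46.3 to 100 FPKM in Het and 94 to 212 in KO. KO replicate 4, the highest for Ooep, was also the highest for Lyz2. Its 2-cell markers summed to 589 FPKM, against 1392 to 1471 in KO replicates 1 to 3. Its oocyte markers summed to 500 FPKM, against 295 to 343 in those. The part of these markers in the members' values was not tested. KO libraries were also shallower, with 5819316 to 6330241 reads on genes against 7947414 to 8239522.

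In the libraries labelled Zscan4 OE no member passed the adjusted test against GFP. Of the 4293 genes tested, 0.0932% were higher and 1.7% lower at an adjusted p under 0.05, and 1.44% differed with a fold change above 2. The unadjusted p was under 0.05 for 2 of the 6 members tested, Nlrp5 and Zbed3, against 19.8% of all genes. Nlrp5 was at 2.12, 2.33, 3.72 and 2.36 FPKM in GFP replicates A to D and 3.73, 7.44 and 4.79 in Zscan4 OE replicates A to C. The groups were adjacent without overlap, as for 7.71% of all genes in this direction, and the log2 difference was 0.78 ± 0.23 (adjusted p = 0.13, limma; unadjusted p = 0.0091). Zbed3 was at 177, 204, 312 and 216 FPKM in GFP and 250, 485 and 468 in the Zscan4 OE libraries (0.79 ± 0.28, adjusted p = 0.17, limma).

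Padi6 in these libraries rested on 1 of them. It was at 1.96 to 2.45 FPKM in GFP and 1.65, 7.09 and 2.83 in Zscan4 OE replicates A to C. The log2 difference of 0.44 became -0.0042 without replicate B. Replicate B was also the highest library for Nlrp5 and Zbed3. Its 2-cell markers summed to 299 FPKM, against 622 and 617 in replicates A and C and 623 to 947 in GFP. Of 12 such markers tested, 11 were lower, and 1 passed the adjusted p, where 1.7% of all genes were lower. Oocyte markers summed to 260 to 361 FPKM in Zscan4 OE, highest in replicate B, and 250 to 304 in GFP. The part of these markers in the members' values was not tested. Ooep had a 95% interval of -0.37 to 0.74, Khdc3 of -0.54 to 0.80 and Nlrp4f of -0.59 to 0.41. Tle6 and Nlrp2 were under the filter. Tle6 was at 0.725 ± 0.314 FPKM in GFP (SD, n = 4) and 0.857 ± 0.373 in Zscan4 OE (n = 3; exact two-sided permutation test, p = 0.514). Nlrp2 was at 0.322 ± 0.0676 and 0.494 ± 0.0348 FPKM, without overlap. The mean difference gave p = 0.0571 in the exact two-sided permutation test. These values can give no smaller p with Zscan4 OE higher, because the groups are already fully separated. The test therefore could not decide whether Nlrp2 differed. Set beside CabZ Het 2-cell embryos, with the tables scaled separately, GFP embryos had more Ooep (324 against 33.9 FPKM), Zbed3 (227 against 54.2, with 259 in ZH Het and 371 in CabZ Het GV oocytes) and Nlrp4f (22.3 against 2.47) and less Khdc3 (3.29 against 10.0).

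Open chromatin at the start sites was read from peaks that the authors called separately in each library of CabZ GV oocytes. The lists differed greatly in size, with 43399, 67074 and 111327 peaks in Het replicates A to C and 46070, 19160 and 29600 in KO, and the share of 21951 coding start sites with a peak within 500 bp ran from 3.74 to 32.2%. Members with such a peak numbered 4, 3 and 5 in Het replicates A to C, against 8.59, 17.6 and 32.2% of coding start sites. In KO replicates A to C they numbered 7, 2 and 4, against 12.4, 3.74 and 4.91%. Because the lists differed so much in size, no test of genotype was made.

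Tle6, whose window is printed above with its CACGTG matches, had a peak in all 6 libraries, with a fold enrichment over the genome background of 4.72, 5.46 and 6.45 in Het and 10.3, 5.85 and 5.41 in KO. It was the member with the highest enrichment in 4 of them, all but Het replicates B and C, where Padi6 was higher. Padi6 had a peak in all 3 Het libraries (3.94, 5.82 and 8.80) and in KO replicate A only (6.09). In Het replicate C that peak covered chr4:140740121-140745380 with its summit 1021 bp inside the gene. Zbed3 had peaks in Het replicates A and B and KO replicates A and C (3.94 to 4.73). Ooep, the most abundant member by FPKM, had none in Het and peaks in KO replicates A and C (4.68 and 3.94). Khdc3, Nlrp2 and Nlrp5 had peaks in 3, 3 and 2 of the 6 libraries, and Nlrp4f in KO replicate C alone (3.44). With a summit within 1 kb required, Padi6 no longer had a peak in every Het library and Tle6 no longer in every KO library.

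**Figure D4:**
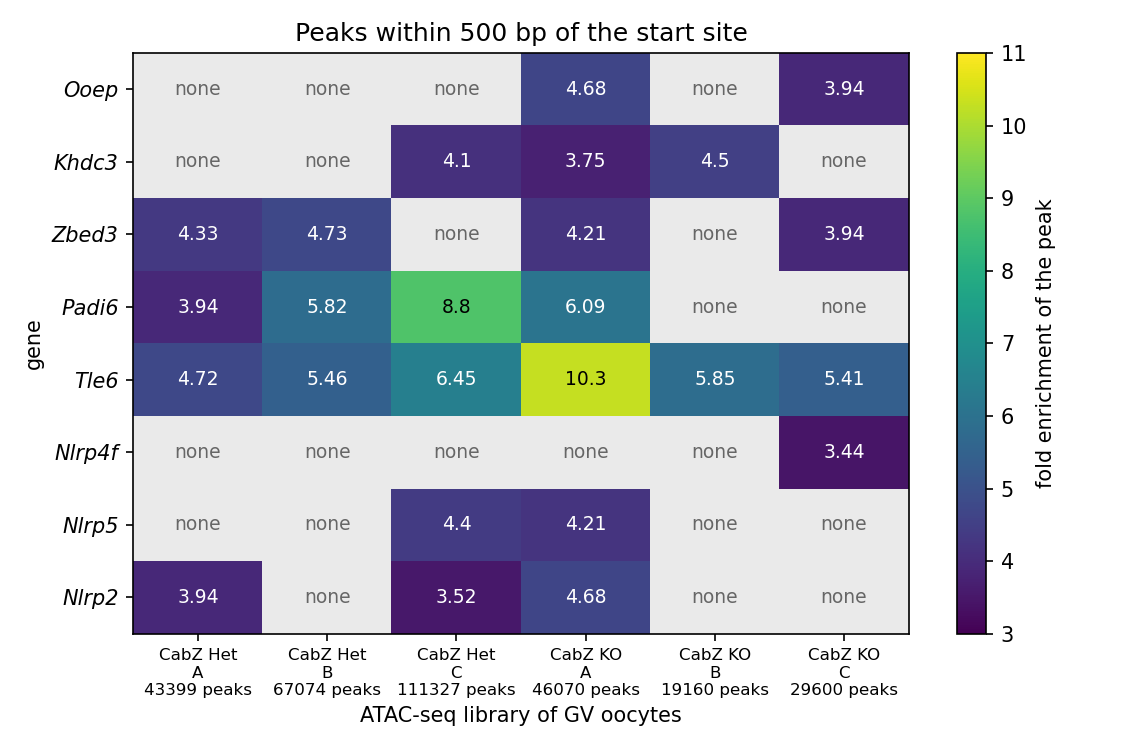
Fold enrichment of the peak within 500 bp of each gene's start site (rows) in the 6 ATAC-seq libraries of CabZ GV oocytes (columns, with the number of peaks in each list); grey cells had no peak. Tle6 is filled in all 6 libraries, from 4.72 to 10.3.

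Other genes of the same families and of the oocyte programme gave the surroundings of these results. Among 8 tested Nlrp genes that are no members, 4 were lower in ZH KO oocytes and none was higher, against 26.3% and 25.6% of all genes. The lower ones were led by Nlrp4a (16.3 to 5.16 FPKM, log2 difference -1.49) and Nlrp4g (37.3 to 19.5 FPKM). In CabZ KO 2-cell embryos all 8 were higher, against 25.2% of all genes, led by Nlrp9a (3.65 to 13.4 FPKM) and Nlrp4g (6.47 to 19.9 FPKM). In CabZ GV oocytes 1 passed, Nlrp9c (19.0 to 13.6 FPKM), where 5.73% of all genes were lower, and in the Zscan4 comparison none.

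The KH-domain relatives of Ooep and Khdc3 split in ZH KO oocytes, where Khdc1b fell from 264 to 56.9 FPKM (log2 difference -2.23) and Dppa5a rose from 360 to 938 FPKM (1.42), with 4 tested. Dppa5a also rose in CabZ KO oocytes (698 to 1330 FPKM, adjusted p = 0.0073, limma). In CabZ KO 2-cell embryos 3 of the 4 were higher, against 25.2% of all genes, led by Khdc1a (25.4 to 63.1 FPKM). Partners associated with the lattices, among them Uhrf1, the Fbxw family and tubulins, gave 4 lower and 1 higher of 11 tested in ZH KO oocytes. All genes gave 26.3% lower and 25.6% higher there. Fbxw21 was at 61.0 and 29.3 FPKM. In CabZ KO 2-cell embryos 7 were higher and 1 lower of 10, against 25.2% and 30.9% of all genes. Nlrp14, which is also on the list of Nlrp genes, was at 8.44 and 25 FPKM. In CabZ GV oocytes only Tuba1c passed (20.5 to 35.2 FPKM), where 8.2% of all genes were higher.

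Of the oocyte transcription factors, 4 were tested in ZH oocytes. Nobox, a homeobox factor of oocyte genes, was lower (114 to 49.9 FPKM, adjusted p = 0.031, limma) and Figla, the E-box factor named above, higher (6.65 to 14.3 FPKM, adjusted p = 5.6e-04, limma). In CabZ KO 2-cell embryos both tested, Tbpl2 and Nobox, were higher, against 25.2% of all genes. Among other maternal-effect genes, 8 of 14 tested were lower and 1 higher in ZH KO oocytes, against 26.3% and 25.6% of all genes. They were led by Btg4, an adaptor of the deadenylase that clears maternal RNA (43.6 to 10.4 FPKM, log2 difference -1.97). In CabZ KO 2-cell embryos 5 of 13 were higher and none lower, against 25.2% and 30.9% of all genes. These were led by the histone-binding Npm2 (11.7 to 44.4 FPKM). None of the transcription factors or maternal-effect genes passed in CabZ GV oocytes or in the Zscan4 comparison.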

How the data were processed

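RNA-seq values of 31 libraries in 4 tables and ATAC-seq peak lists of 6 libraries were used, with groups taken from genotype, injection and stage in the records. The authors used TrimGalore for trimming, STAR 2.5.3a for alignment and Partek Flow for normalisation. The ZH and Zscan4 tables were deposited as FPKM over the gene span with a small constant added. The Cabin1 tables were deposited as score values that, judged from the numbers, the authors had divided by the span once more and brought to equal library totals. The table minimum was subtracted, and Cabin1 values were multiplied by the span and rescaled to each library's reads. The authors called peaks per library with MACS2, whose lists were deposited with fold enrichment, -log10 p and q-values and a score made from -log10 q. ATAC-seq read numbers were not used here.

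Reads per gene were recovered from the steps between low values, of which 77.6 to 87.1% lay within 0.05 reads of a whole number, too few for a count test. Depth was 5819316 to 21869858 reads on genes, and intervals from reads would cover counting error only. Testing was by limma 3.58.1 (R 4.3.3), table by table, on log2(FPKM + 1) of genes averaging 1 FPKM or more, without a replicate block. Calls needed an adjusted p under 0.05 and, where said, a fold change above 2. The design had assumed FPKM in all tables, and restoring the Cabin1 values was the 1 departure. Members under 1 FPKM got exact permutation tests (scipy 1.17.1, Python 3.11.15). The scripts were tested on simulated data. Promoter windows came from RefSeq and gene models from GENCODE M21, both GRCm38.

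All 8 members were named, from each list at most the 2 genes per comparison with the largest change among those that passed, and per table the 3 genes nearest the members' mean. The members and lists were chosen with earlier results of these data known.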

Additional observations from a re-analysis of the deposited data

Results flagged for a closer look

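In 3 of the 56 groups of 4 libraries, 1 library stood apart from the rest by the ratio of its gap to the group's range, and chance alone flags about 1 in 20 groups in this way. Ooep in CabZ KO 2-cell embryos was at 446 FPKM in replicate 4, against 173 in the next library. Nlrp2 in CabZ Het 2-cell embryos was at 0.175 FPKM in replicate 1, against 0.313 in the next. Nlrp5 in GFP embryos was at 3.72 FPKM in replicate C, against 2.36 in the next.

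A pair of members moved in opposite directions in different comparisons, with no overlap of the groups in either. For Zbed3 the log2 difference was -2.09 with Hira deleted (GV) and 0.89 with Cabin1 deleted (2-cell). Nlrp4f had -1.35 and 1.85. These comparisons differ in both the deleted gene and the stage. CabZ GV oocytes, which share the stage with the first and the deleted gene with the second, had -0.52 for Zbed3 (adjusted p = 0.15, limma) and -0.06 for Nlrp4f (95% interval -0.36 to 0.24). The difference between the comparisons was not tested.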

How the results depend on the processing

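Over 475 refits of single members, 424 kept direction and side of the threshold, 35 lost the adjusted p, 4 gained it and 12 changed sign. ZH KO members called lower (4) numbered 2 when scaled to the table's reads and 2 to 5 with a library left out (2 without KO replicate 1, 5 without KO replicate 2). CabZ KO 2-cell members called higher (2) numbered 4 with a pseudocount of 0.1, median scaling, quantile normalization or the ratio of mean FPKM, 6 without a fold threshold, and 2 to 4 with a library left out (4 without Het replicate 4). With no filter on low values, 3 rather than 6 members passed the adjusted p in ZH and 4 rather than 6 in CabZ 2-cell embryos. Khdc3 in CabZ 2-cell embryos passed under median scaling (adjusted p = 0.040, limma) and as deposited (0.029).

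Signs turned for Nlrp5 in ZH when scaled to the table's reads (0.011), for Ooep in ZH under median scaling (-0.023) and for Nlrp4f in the Zscan4 comparison under median scaling (0.0080). With a library left out, signs turned within the range of -0.042 to 0.32 for Ooep in ZH (below 0 without KO replicate 1 or 4), -0.14 to 0.030 for Nlrp4f in CabZ GV (above 0 without Het or KO replicate 3), and in the Zscan4 comparison -0.085 to 0.38 for Khdc3 (below 0 without GFP B or Zscan4 OE C), -0.0042 to 0.80 for Padi6 (below 0 without Zscan4 OE B) and -0.19 to 0.087 for Nlrp4f (above 0 without GFP C or Zscan4 OE A). Members with a peak in every library were 2 in Het, 1 by summits within 1 kb and 0 at a -log10 q of at least 5, and 1 in KO, 0 by either stricter rule and 1 to 3 with a library left out (3 without KO replicate B, 2 without C). The cause was not tested.

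With the replicate number as a replicate block, members called went from 4 to 3 in ZH, where Tle6 lost its call (adjusted p = 0.052, limma), and numbered 0 in CabZ GV, 2 in CabZ 2-cell and 0 in the Zscan4 comparison, as without it. It changed no other member's call. Same-numbered libraries did not deviate together in all pairs (r of -0.41 to 0.40), and 1, 0, 1 and 2 libraries of 4 correlated best with their own number. The labels do not say whether equal numbers are pairs, and so few libraries cannot decide it.

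Over all genes, some counts of calls (higher and lower) moved by more than 1.5 times. In ZH, 606 and 417 became 849 and 796 with a pseudocount of 0.1, 471 and 627 with median scaling, 958 and 372 scaled to the table's reads, 883 and 794 by the ratio of means and 1485 and 1521 without a fold threshold. In CabZ GV, 131 and 53 became 227 and 101, 249 and 105, and 520 and 363 with the pseudocount, the ratio of means and no fold threshold, and 100 and 35 as deposited. In CabZ 2-cell, 1320 and 1594 became 1124 and 372 as deposited and 1963 and 2413 without a fold threshold. In the Zscan4 comparison, 1 and 61 became 0 and 5 with no filter and 0 and 2 with the block. The filter is on FPKM over the gene span and not on reads: in the Zscan4 table Nlrp2, with 183 to 698 reads, was under it and Khdc3, with 78 to 237 reads, was not.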
